A study of Mus musculus with 4 samples.

Results

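Small heat shock proteins and genes named after the crystallins of the lens were followed in cells grown from the mouse inner ear. The set holds 9 of the 24346 gene symbols measured: 7 small heat shock genes (Cryab, Hspb1, Hspb2, Hspb3, Hspb6, Hspb7 and Hspb8) and 2 crystallin-related genes (Cryl1 and Crym). The rows were taken by gene symbol, and the symbols were selected on values in these vestibular and cochlear libraries that were already known. Their vestibular and cochlear levels are therefore described with no p-value. The groups were primary cultures of vestibular cells (2 libraries) and of cochlear cells (2 libraries) from the mouse inner ear, with RNA extracted in TRIzol and mRNA libraries made with a stranded kit. No treatment is named for either group. The strain, age and number of animals, the time in culture and whether the libraries came from separate cultures were not given in the sources used here, so the spread between libraries of a group may be technical.

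Small heat shock proteins are chaperones without ATPase activity. They share an alpha-crystallin domain, assemble into oligomers, hold unfolding proteins in a soluble state and pass them to the HSP70 machinery. Cryab (alpha-B crystallin) and Hspb1 (HSP27 in human, HSP25 in mouse) bind actin and intermediate filaments, and Cryab is abundant in lens, muscle and glia. The name crystallin also covers unrelated enzymes that some animals use as lens proteins: Cryl1 encodes lambda-crystallin, the L-gulonate dehydrogenase of the uronate cycle, and Crym encodes mu-crystallin, which binds thyroid hormone in the cytosol. Mutations of human CRYM cause an inherited deafness, and the gene is known for its expression in fibrocytes of the cochlear lateral wall.

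Likeness among the small heat shock members other than Hspb7 can be seen in their coding sequences. A stretch of 60 coding bases of Cryab, bases 295 to 354 of its open reading frame, was the in-frame stretch closest to the other small heat shock members over ungapped alignments. It is shown with the closest stretch of the other expressed small heat shock members, so that their likeness can be read base by base. Capitals mark bases identical to Cryab, and the sequences are from GENCODE release M21.
Cryab: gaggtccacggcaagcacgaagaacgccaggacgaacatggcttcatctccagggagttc
Hspb1: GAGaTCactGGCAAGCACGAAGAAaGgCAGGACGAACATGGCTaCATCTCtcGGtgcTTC
Hspb6: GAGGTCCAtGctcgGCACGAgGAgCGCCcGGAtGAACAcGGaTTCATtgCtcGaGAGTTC
Hspb8: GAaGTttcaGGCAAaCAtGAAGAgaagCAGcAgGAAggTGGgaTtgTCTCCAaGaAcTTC
Hspb2: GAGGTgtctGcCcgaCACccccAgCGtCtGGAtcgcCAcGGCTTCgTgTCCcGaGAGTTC
Hspb1 matched Cryab at 48 of 60 bases (80%), Hspb6 at 44 (73.3%), Hspb8 at 38 (63.3%), Hspb2 at 36 (60%) and Hspb3 at 35 (58.3%). The 2 crystallin-related genes each reached 45.0%, and Hspb7 was no closer, at 41.7%. The stretch was picked for closeness to the small heat shock members alone, which raises their percentages against those of Cryl1 and Crym.

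The libraries differed in the levels of cell type markers, and 2 of them stood apart. Levels are given as FPKM (fragments scaled by transcript length and sequencing depth), whose totals ran from 479380 to 519122. Sums of a marker list run over all its measured genes, whether or not they were kept at a mean of at least 1 FPKM. Macrophage genes (17 of 17 in the files kept, none listed at 0 in all libraries) summed to 31.6 FPKM in cochlear library 2 and to between 7172 and 9501 FPKM in the other libraries. Vestibular library 2 had the lowest epithelial sum, 154 FPKM (16 of 18 genes kept), against 1359 in vestibular library 1, 2452 in cochlear library 1 and 3050 in cochlear library 2. It also had the highest sums of genes of fibroblasts (18 of 18 kept, 6914 FPKM, others 1181 to 3789), cartilage (10 of 14, 4998 FPKM, others 585 to 1126), melanocytes and stria (8 of 9, 239 FPKM, others 20.0 to 24.1), otic fibrocytes (19 of 19, 4908 FPKM, others 2285 to 4513) and glia (11 of 16, 386 FPKM, others 211 to 277). Not all genes of these lists were highest in vestibular library 2. Its glial sum was led by S100b (178 FPKM) and Pmp22 (167 FPKM). The glial genes Sox10, Mbp and Erbb3 had their lowest values there (15.5, 6.2 and 3.01 FPKM). The cartilage gene Lect1 was also lowest there (33.7 FPKM), as were the otic fibrocyte genes S100a1 (202 FPKM) and Atp1b1 (110 FPKM). Of 15 hair cell genes 5 were kept, and the 15 together summed to between 35.0 and 46.9 FPKM. No hair cell gene left out exceeded 1.63 FPKM in any library. In such bulk libraries, fewer cells of a type and less RNA per cell cannot be told apart.

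Cryab had the highest level of the set and stood higher in the cochlear cultures. Its level was 303 FPKM in vestibular library 1, 167 in vestibular library 2, 748 in cochlear library 1 and 1069 in cochlear library 2. Pairs of values that follow are given in the same order, library 1 first. The groups did not overlap, and the lower cochlear library stood 2.47 times above the higher vestibular library. The means were 235 ± 95.6 and 908 ± 227 FPKM (SD, n = 2 each), a 3.87-fold difference. On the scale of log2(FPKM + 1) the vestibular minus cochlear difference was -1.99 (SE 0.38), and 3.79% of the 13200 genes with a mean of at least 1 FPKM had a larger difference in either direction. Without vestibular library 2 the difference was -1.56, and without cochlear library 2 it was -1.73. Cryab had the same order of libraries as the epithelial sum and as the summed supporting cell genes. The latter (15 genes, of which 10 were kept) summed to 217 and 215 FPKM against 948 and 1452. Fbxo2 led that sum, with 114 and 98 FPKM against 855 and 1275. Of the 10 kept, 7 lay the other way, with a difference above 0, and the list median was 0.51. The part of epithelial and supporting cells in the Cryab result was not tested. Sox10, which marks Schwann cells and melanocytes, had 37.7 and 15.5 FPKM against 108 and 100.4. Of the 11 glial genes kept, 7 had a difference above 0, opposite to Cryab and Sox10, and 4 had one below 0. Over all libraries Cryab ranked 119 among the symbols by mean FPKM. It spans 50751325 to 50756636 of chromosome 9 (plus strand, GRCm38, that is mm10), and its main transcript has 3 exons.

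Hspb2, which encodes a muscle chaperone that binds the myotonic dystrophy kinase, lies head to head with Cryab and was also higher in the cochlear cultures. It had 6.94 and 6.60 FPKM in the vestibular libraries, against 21 and 16.7 in the cochlear ones, with means of 6.77 ± 0.236 and 18.9 ± 3.05 (SD, n = 2 each), 2.79-fold apart. The groups did not overlap, and the difference was -1.35 (SE 0.16) on the log2 scale, or -1.31 without vestibular library 2 and -1.5 without cochlear library 2. The pair did not keep a fixed ratio: the FPKM of Cryab was 43.6 and 25.3 times that of Hspb2 in the vestibular libraries, against 35.6 and 64.0 times in the cochlear ones. Cochlear library 1 had the highest Hspb2 value, while cochlear library 2 had the highest Cryab value. Hspb2 spans 50751078 to 50752354 on the minus strand of chromosome 9, and 613 bases separate the starts of the main transcripts. Of the 6 annotated Cryab transcripts 2 start inside Hspb2, and 252 exonic bases (30.2% of those of Hspb2) lie in exons of both genes. With the strand setting of the authors' counting not given in the sources used here, fragments from this stretch may have been shared between the genes.

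Hspb1 was the second most abundant member and differed little between groups. It was at 182 and 207 FPKM in the vestibular libraries, against 146 and 175 in the cochlear ones. Both vestibular values lay above both cochlear values, but vestibular library 1 exceeded cochlear library 2 by a factor of 1.04. The log2 difference was 0.28 (SE 0.15), and 46.4% of the genes tested differed by more. It was 0.15 without cochlear library 1. Hspb1 spans 135887919 to 135889563 of chromosome 5 (plus strand).

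Cryab and Hspb1, which can assemble with each other, thus stood in a different balance in the groups. Cryab had 1.66 and 0.807 times the FPKM of Hspb1 in the vestibular libraries, against 5.11 and 6.12 times in the cochlear ones. FPKM is scaled by length, so levels of different genes can be set side by side. Summed over the 7 small heat shock genes the level was 566 and 462 FPKM in the vestibular libraries, against 981 and 1331 in the cochlear ones. Cryab made up 53.4% and 36.2% of this sum in the vestibular libraries, and 76.2% and 80.3% in the cochlear libraries. Without Cryab the sum was 264 and 294 FPKM against 234 and 262 FPKM, so that vestibular library 1 and cochlear library 2 were nearly equal. Hspb1 was the largest part of this remainder in each library. The sum does not describe each gene in it, as Hspb2 was higher in the cochlear libraries and Hspb6 overlapped between the groups.

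**Figure D1:**
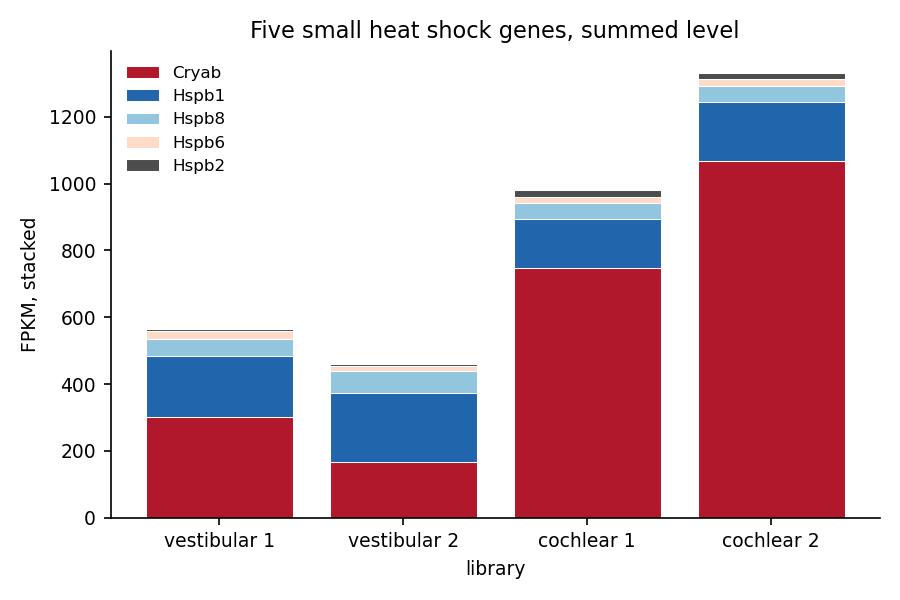
Stacked FPKM of Cryab, Hspb1, Hspb8, Hspb6 and Hspb2 (vertical axis) in each of the 4 libraries (horizontal axis). The Cryab segment runs from 167 FPKM in vestibular library 2 to 1069 FPKM in cochlear library 2, while the other segments together stay between 234 and 294 FPKM.

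Hspb8, the partner of the co-chaperone Bag3 in clearing misfolded proteins by selective autophagy, was at 49.6 and 65.0 FPKM in the vestibular libraries, against 47.3 and 47.8 in the cochlear ones. Vestibular library 2 held the high value, and the other 3 libraries lay close together. The log2 difference of 0.25 (SE 0.17) became 0.06 without vestibular library 2 and 0.44 without vestibular library 1. Bag3, named after its values were seen, also had its highest value in vestibular library 2, with 36.9 and 57.2 FPKM against 35.8 and 34.8. The ratio of Hspb8 to Bag3 was 1.34, 1.14, 1.32 and 1.38 in vestibular 1, vestibular 2, cochlear 1 and cochlear 2. Hspb8 spans 116408491 to 116422864 of chromosome 5 (minus strand).

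Hspb6 (HSP20), a regulator of smooth and cardiac muscle contraction, overlapped between the groups. It had 25 and 15.3 FPKM in the vestibular libraries, against 18.9 and 22.7 in the cochlear ones, and the vestibular libraries held both the highest and the lowest value. The log2 difference was -0.08 (SE 0.28), and its sign turned without vestibular library 2 (0.26) and without cochlear library 2 (0.05). Hspb6 spans 30552178 to 30555443 of chromosome 7 (plus strand), and overlaps Proser3 and Lin37 on the other strand.

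The muscle-restricted members Hspb3 and Hspb7 were near the floor of the files. Hspb3 had 0.183 FPKM in vestibular library 1 and was listed at 0 in the other 3 libraries. Hspb7 (the cardiovascular small heat shock protein) had 0.164 and 0.294 FPKM in the vestibular libraries, against 0.324 and 0.0705 in the cochlear ones. Both had a mean under 1 FPKM and were left out of the fit. Hspb3 lies on chromosome 13 at 113662896 to 113663676 on the minus strand, and Hspb7 spans 141420779 to 141425311 of chromosome 4 (plus strand). Of 26 genes of skeletal and cardiac muscle 6 were kept, and the 26 together summed to 16.3 and 9.03 FPKM in the vestibular libraries, against 57.1 and 40.8 in the cochlear ones. The muscle regulators Myod1 and Myog were listed at 0 in all libraries, as were Actc1, Myh4 and Myh8. Myoglobin (Mb) and the troponin gene Tnnt2 led the cochlear sums, with 25 and 17.2 FPKM and with 16.1 and 7.61 FPKM. Of the 6 kept, 4 had a difference below 0 and 2 had one above 0. Tnnt1, another troponin gene, overlapped between the groups, at 3.92 and 2.04 against 2.4 and 3.08 FPKM. Hspb2 had the same order of libraries as the muscle sum, and the part of muscle cells in its levels was not tested.

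Crym, the thyroid hormone binding protein gene, was the member with a higher level in vestibular cultures by the widest margin, and 1 library led it. It was at 8.79 and 21.7 FPKM in the vestibular libraries, against 5.99 and 6.54 in the cochlear ones. The groups did not overlap, but vestibular library 1 was only 1.34 times above the higher cochlear library. The means were 15.2 ± 9.09 and 6.26 ± 0.390 FPKM (SD, n = 2 each). The log2 difference of 1.04 (SE 0.46) was 0.43 without vestibular library 2 and 1.64 without vestibular library 1. The gap between the vestibular libraries, 1.21 on the log2 scale, was larger than the difference between the groups. Its high library was also the one with the highest summed fibroblast, cartilage, melanocyte, otic fibrocyte and glial genes, whose part in the result was not tested. Single genes of these lists, among them Sox10, Mbp, Lect1, S100a1 and Atp1b1, were lowest in that library. Of the 19 otic fibrocyte genes kept, 14 had a difference above 0 and 5 had one below 0. Crym spans 120186380 to 120202111 of chromosome 7 (minus strand), with 8 exons in its main transcript.

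Cryl1 had 14.0 and 12.1 FPKM in the vestibular libraries, against 19.6 and 16.3 in the cochlear ones. The groups did not overlap, and the nearest libraries were 1.16-fold apart. The log2 difference was -0.43 (SE 0.15), and 32.0% of the genes tested differed by more. Cryl1 spans 57274993 to 57398529 of chromosome 14 (minus strand).

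Of the 7 members kept, 6 had groups that did not overlap, 3 in each direction. The same held for 55.3% of the genes tested, 26.9% with the vestibular and 28.4% with the cochlear libraries on top. The members were chosen by this contrast, so nothing is read from their share. The median difference of all genes tested was 0.01 on the log2 scale.

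**Figure D2:**
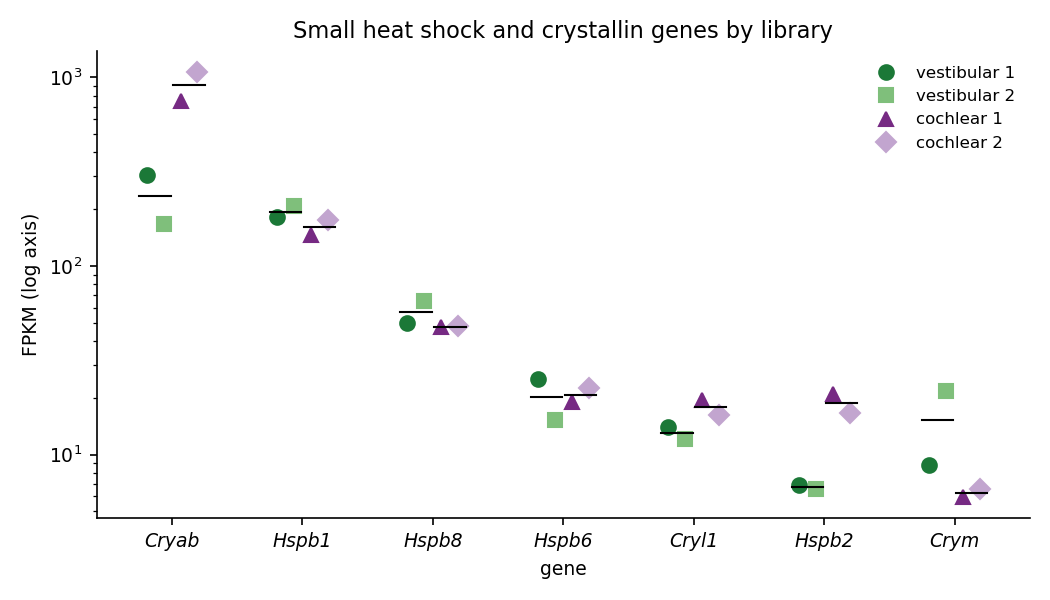
FPKM on a log axis for the 7 members kept (horizontal axis), 1 point for each library and a black line at each group mean (n = 2). Cryab and Hspb2 have both cochlear points above both vestibular points by at least 2.41-fold, and Crym has its high value in vestibular library 2 (21.7 FPKM).

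**Figure D3:**
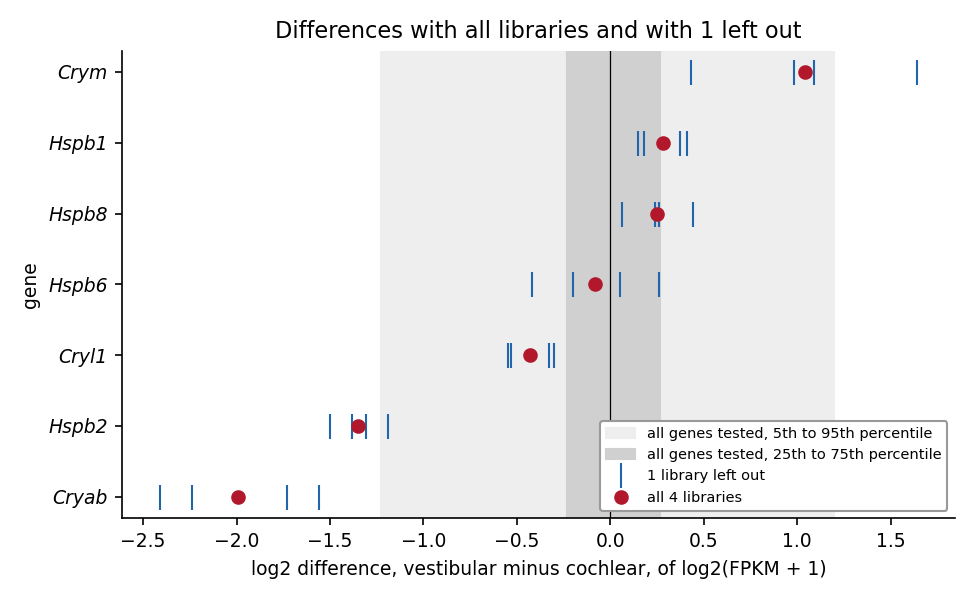
Vestibular minus cochlear difference of log2(FPKM + 1) for the members (circles), the same with each library left out (ticks), and the central range of all genes tested (grey). Cryab (-1.99) and Hspb2 (-1.35) lie outside the light grey range, and ticks of Hspb6 fall on both sides of 0.

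Genes with the same pattern over the 4 libraries were sought among 7270 genes with a mean of at least 10 FPKM. Likeness was the root mean square difference between log2(FPKM + 1) profiles centred on each gene's mean, and with 4 libraries many genes lie close by. Closest to Cryab were B4galt4, a galactosyltransferase gene, and Ndrg1, a gene of the stress and hypoxia response (both 0.070), then Gas2, a cytoskeletal gene of growth arrest (0.092). A total of 40 genes lay within 0.25 of Cryab. Ndrg1 was at 42.0 and 24.4 FPKM in the vestibular libraries, against 113 and 144 in the cochlear ones. Closest to Hspb2 were Arl5a, a small GTPase gene (0.023), Pacs1, a membrane sorting gene (0.030), and the adaptor gene Shf (0.034), with 91 genes within 0.25. Closest to Crym were Kdelr3, which encodes a receptor that returns proteins to the endoplasmic reticulum (0.034), P3h1, the collagen prolyl 3-hydroxylase gene (0.046), and Mras, a Ras-related GTPase gene (0.048), with 66 genes within 0.25. P3h1 was at 31.7 and 69.7 FPKM in the vestibular libraries, against 22.8 and 23.8 in the cochlear ones.

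**Figure D4:**
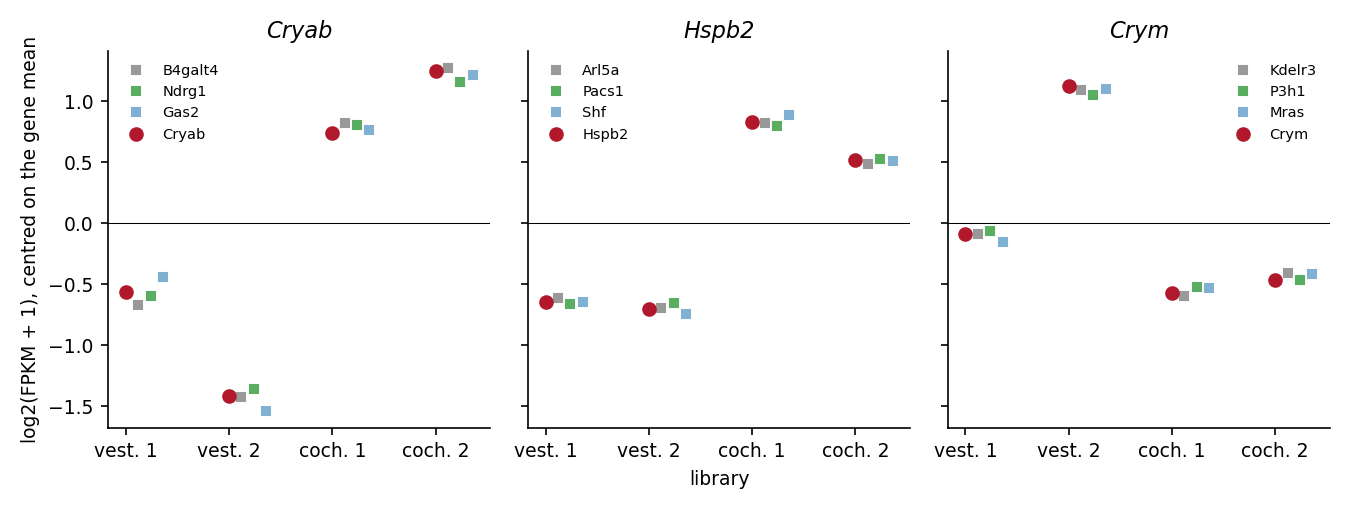
log2(FPKM + 1) centred on each gene's mean (vertical axis) in the 4 libraries (horizontal axis) for Cryab, Hspb2 and Crym (circles), each with its 3 closest genes (squares, set to the right). Cryab and Hspb2 are low in both vestibular libraries, and Crym is high in vestibular library 2.

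The rest of the chaperone network held genes that overlapped between the groups and genes that did not. Limma, fitted to all genes tested, called 0 of 72 genes kept from 5 chaperone lists at an adjusted p under 0.05, against 4 of 13200 (0.0303%) over all genes tested. At an unadjusted p under 0.05, 5 of the 72 were higher in vestibular cultures (background 7.61%) and 6 higher in cochlear cultures (background 10.6%). The groups did not overlap in 28 of the 72 with the cochlear libraries on top (background 28.4%) and in 12 with the vestibular libraries on top (background 26.9%), and the median log2 difference was -0.07. The HSP70 gene Hspa8, the constitutive partner to which small heat shock proteins pass their clients, had 891 and 876 FPKM in the vestibular libraries, against 885 and 977 in the cochlear ones. The HSP90 gene Hsp90ab1 had 562 and 731 against 568 and 626 FPKM, and the endoplasmic reticulum chaperone gene Hspa5 had 493 and 454 against 490 and 483 FPKM. These 3 overlapped between the groups. The mitochondrial HSP70 gene Hspa9 (95 and 102 against 114 and 130 FPKM) and the chaperonin subunit gene Cct5 (111 and 93.1 against 113 and 115 FPKM) did not, with both cochlear values on top.

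Larger differences of single chaperone genes also stood without passing the adjusted threshold. Dnajb6, a J-domain co-chaperone gene that holds back protein aggregation, had 61.9 and 65.7 FPKM in the vestibular libraries, against 132 and 125 in the cochlear ones (log2 difference -1.0, limma adjusted p 0.0955). Hspa2, an HSP70 gene best known from the testis and named after its values were seen, had 11.7 and 7.46 FPKM against 41.6 and 45.7 (log2 difference -2.10, limma adjusted p 0.107). Both had cochlear values above the vestibular values, as Cryab did. Of the chaperone genes at an unadjusted limma p under 0.05, 6 lay this way (background 10.6%) and 5 the other way (background 7.61%). Among those 5 were Dnajb4 (23.6 and 25.3 against 14.6 and 16.8 FPKM) and Ahsa1 (82.8 and 83.8 against 60.2 and 60.9 FPKM). These 2 genes were named after their values were seen. The heat shock factor gene Hsf2, also named after its values were seen, had 9.80 and 11.3 FPKM in the vestibular libraries, against 5.62 and 6.24 in the cochlear ones (limma adjusted p 0.169). The stress-induced HSP70 gene Hspa1a stood low, at 3.15 and 2.54 against 5.49 and 7.17 FPKM, and was likewise named after its values were seen. Its copy Hspa1b is near identical, so reads of the pair may have been split between them.

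Among filament genes that small heat shock proteins are known to bind, 11 of 13 were kept and limma called 0. At an unadjusted limma p under 0.05, 1 was higher in vestibular cultures (background 7.61%), a share of calls near that of all genes. Vimentin (Vim) was that gene, at 683 and 638 FPKM in the vestibular libraries, against 450 and 267 in the cochlear ones (limma adjusted p 0.258). Vim thus lay opposite to Cryab, while the cytoplasmic actin gene Actg1 lay the same way as Cryab, at 1273 and 1126 FPKM against 1588 and 1444 (log2 difference -0.34, limma adjusted p 0.39). The other actin gene, Actb, overlapped between the groups. In 8 of the 11 kept the groups did not overlap, with the vestibular libraries on top (background 26.9%). Actg1 was the only 1 without overlap and with the cochlear libraries on top (background 28.4%). Differences were above 0 in 9 of the 11. The filament list had a median difference of 0.41, and this was 0.16 without vestibular library 1 and 0.27 without cochlear library 2.

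Lens genes were near the floor of the files. Of 19 lens crystallin and lens genes, 1 was kept (Crybb3, at 1.26 and 0.685 FPKM in the vestibular libraries, against 0.754 and 1.48 in the cochlear ones), and 9 were listed at 0 in all libraries. Cryaa, the lens partner of Cryab, was named after its values were seen. It had 0.205 FPKM in vestibular library 2 and was listed at 0 elsewhere. Of the other small heat shock genes, Hspb9 reached at most 0.713 FPKM and Odf1 at most 0.117 FPKM, while Hspb11, an intraflagellar transport gene despite its name, had 21.5 and 25 against 24.2 and 21.1 FPKM. Of 4 other crystallin-related genes kept, limma called 0 and 2 had an unadjusted p under 0.05, both higher in cochlear cultures (background 10.6%). These were Aim1 and Crybg3, while Cryz and Cryzl1 had differences of 0.12 and 0.30. Aim1, a gene with beta-gamma crystallin repeats, was at 3.99 and 2.04 FPKM in the vestibular libraries, against 24.7 and 16.0 in the cochlear ones (log2 difference -2.43, limma adjusted p 0.130). Its relative Crybg3, named after its values were seen, had 4.78 and 3.52 against 10.1 and 10.6 FPKM (log2 difference -1.15, limma adjusted p 0.132).

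Genes of thyroid hormone transport, conversion and response were taken as the pathway of Crym. Of 19 listed, 16 were kept, limma called 0, and 5 had an unadjusted p under 0.05, all higher in vestibular cultures (background 7.61%). The median difference of the list was 0.52, against 0.01 for all genes tested. Dio2, the activating deiodinase gene, had the highest level, with 217 and 156 FPKM in the vestibular libraries, against 97.4 and 166 in the cochlear ones, and the groups overlapped. The receptor gene Thra stood at 38.1 and 37.0 against 35.8 and 39.8 FPKM. The corepressor gene Ncor1 lay the other way, at 28.8 and 34.9 against 39.9 and 43.8 FPKM. The receptor gene Thrb and the corepressor gene Hr, a known target of the hormone, were named after their values were seen. Thrb had 11.0 and 19.1 FPKM in the vestibular libraries, against 6.36 and 5.05 in the cochlear ones (limma adjusted p 0.215), and Hr had 9.08 and 30.1 against 3.36 and 4.34 FPKM (limma adjusted p 0.259). Both had their highest value in vestibular library 2, as Crym did. The transporter gene Slco4a1, also named after its values were seen, had 12.9 and 11.9 against 2.21 and 0.783 FPKM (limma adjusted p 0.122). The inactivating deiodinase gene Dio3 and the receptor gene Rxra complete the 5, likewise named after their values were seen. Dio3 had 20.1 and 15.9 against 11.5 and 11.1 FPKM (limma adjusted p 0.21). Rxra had 32.8 and 41.7 against 27.7 and 23.8 FPKM (limma adjusted p 0.268).

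Enzymes of glucuronate and pentose conversion were taken as the pathway of Cryl1. Limma called 0 of the 8 kept, and 2 had an unadjusted p under 0.05, both higher in vestibular cultures (background 7.61%). Of the 8 differences 4 were above and 4 below 0, with a median of -0.11. Dcxr, the xylulose reductase gene that acts downstream of the Cryl1 step, had 52.5 and 44.0 FPKM in the vestibular libraries, against 33.0 and 37.0 in the cochlear ones (limma adjusted p 0.25). Sord, the sorbitol dehydrogenase gene, was named after its values were seen and had 32.7 and 36.8 against 20.4 and 17.6 FPKM (limma adjusted p 0.134). Both lay opposite to Cryl1. Akr1a1, the reductase gene upstream, had 470.4 and 432 against 446 and 413 FPKM.

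**Figure D5:**
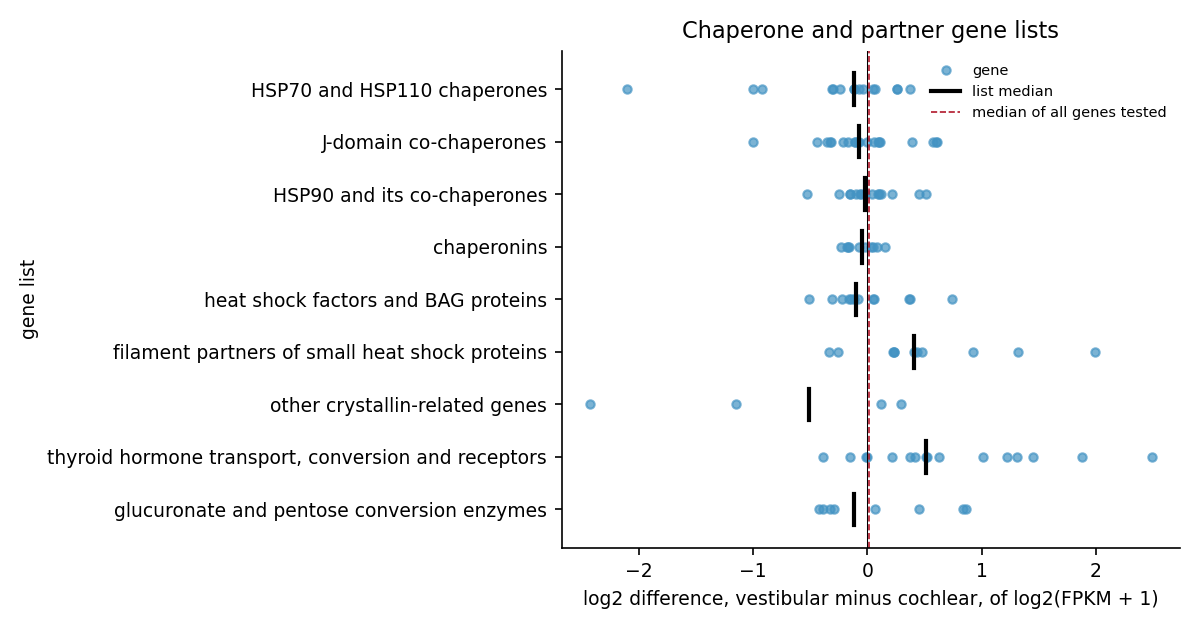
Vestibular minus cochlear difference of log2(FPKM + 1) (horizontal axis) for each kept gene (circles) of the gene lists with at least 4 kept (vertical axis), with list medians (black) and the median of all genes tested (dashed). The medians of the 5 chaperone lists lie between -0.12 and -0.02, and that of the thyroid hormone list at 0.52.

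Promoters were searched for the core of the heat shock element, the site that heat shock factors bind. RefSeq start sites of GRCm38.p6 (250 bases before to 50 after) were at hand for 6 of the 9 members in 7 windows: Hspb1, Hspb3, Hspb6 (2 windows), Hspb7, Hspb8 and Cryl1, not for Cryab, Hspb2 or Crym. The core was searched as GAANNTTC or TTCNNGAA, each of which reads the same on both strands. At least 1 core was found in 5 of the 6 members, all but Hspb7, and 15.1% of all 32851 windows held one. The longer forms GAANNTTCNNGAA and TTCNNGAANNTTC, in which the cores overlap, were in none of the members' windows and in 0.603% of all windows. Counted from the start site as +1, the cores of Hspb1 begin at -117 and -97. The stretches around the cores of the 3 abundant members are shown because they differ in distance from the start site, with the cores in capitals.
Hspb1, chr5:135887772-135887831, plus strand: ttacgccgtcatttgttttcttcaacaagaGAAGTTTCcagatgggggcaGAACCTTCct
Hspb6, chr7:30553131-30553190, plus strand: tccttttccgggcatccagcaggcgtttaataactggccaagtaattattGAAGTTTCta
Hspb8, chr5:116422855-116422914, minus strand: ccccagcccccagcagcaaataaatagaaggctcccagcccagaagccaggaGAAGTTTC
The same 8 bases, GAAGTTTC, formed a core in all 3 genes, beginning at -120 from the second annotated start site of Hspb6 and at +3 in Hspb8. These 3 genes overlapped between the groups or differed by at most 0.28 on the log2 scale. A match is a description of the letters and does not show that a factor binds there.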

How the data were processed

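RNA sequencing libraries of primary vestibular (2) and cochlear (2) cultures were used, 1 file per library with 24346 symbols. The deposited values are FPKM, per the file headers. The genome build was mm10, and Cuffdiff 2.2.1, TopHat2 2.1.1, SAMtools 0.1.18 and Bowtie2 2.2.8 were named as software, per the submitters' processing notes, with settings, annotation, strand and scaling between libraries not given in the sources used here.

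Fragment numbers are not given, so no counting interval is printed. Most common ratios among values of short noncoding RNA genes put the worth of 1 fragment in vestibular library 1 at 1.11, 1.14 and 1.16 times that in vestibular 2, cochlear 1 and cochlear 2. These ratios are rough, as they rest on 7 of 30, 5 of 30 and 8 of 34 genes.

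Genes with a mean of at least 1 FPKM (13200) were fitted as log2(FPKM + 1), vestibular minus cochlear, with limma 3.58.1 in R 4.3.3 (eBayes with trend, 2-sided, Benjamini-Hochberg, threshold 0.05). This scale understates differences of low genes. With 2 against 2 the smallest exact permutation p is 0.333. The fit was tested on simulated data. Positions came from GENCODE M21 and promoters from RefSeq.

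The members and the 11 pathway and 13 cell type lists were chosen with earlier results of these data known. No library-level batch is named in the labels. Besides the members, up to 3 genes per list with the highest mean were named, and others are said to have been named after their values were seen. Alternatives were the pseudocount (0.1), no filter, upper quartile scaling, a replicate block and each library left out.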

Additional observations from a re-analysis of the deposited data

How the results depend on the processing

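Cryab, Hspb1, Hspb2, Hspb8, Cryl1 and Crym kept the sign of their difference under all 8 alternatives, and Hspb6 in 6 of 8. The groups of those 6 members do not overlap, so among the alternatives only the rescaling could have turned a sign. Nothing is therefore read from the kept signs. The ranges were -2.41 to -1.56 for Cryab, -1.5 to -1.19 for Hspb2 and 0.43 to 1.64 for Crym. The count of 6 members without overlap was 6 or 7 when libraries were left out or rescaled, alternatives added after seeing the data. Over all genes tested the share without overlap was then 73.3% to 80.5% with a library left out, so nothing is read from the count. Limma called 4 genes over all genes tested, 2 with no filter, 0 with the replicate number as a block, and 0 without any one library (lowest and highest count 0). Among the pathway list genes it called 0 under each alternative, with 9 to 24 at an unadjusted p under 0.05, where all genes gave 1019 to 2977. The lowest count of both came without cochlear library 2. Each group holds 1 library of each number, so the block could not move any member's difference, only its SE. Deviations of libraries with the same number correlated at 0.043 across genes. With libraries left out, list medians ran from -0.11 to 0.01 for J-domain co-chaperones, from 0.16 to 0.55 for filament partners and from -0.20 to 0.35 for glucuronate enzymes. With no filter the medians were -0.28 for glucuronate enzymes and -0.07 for other crystallin-related genes, since genes near 0 then enter. The cause of the other shifts was not tested. Where 1 library was left from a group, it was assumed to vary like the other group. With fragment numbers unknown, Hspb3 and Hspb7 are given as values only.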
